A study of Homo sapiens with 6 samples.

Results

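A set of 10 cell surface antigens that are used in typing B-cell precursor leukemia were examined, namely CD22, CD24, CD38, CD34, MME (CD10), CD44, CD27, CD99, CD9 and CD72. They were chosen by name, and every catalogue probe of the array whose RefSeq accession belongs to one of these 10 genes was taken. This gave 13 probes among 34134 catalogue probes, for 10 of 19721 named genes; 8 genes had 1 probe, CD34 had 2 and MME had 3. Expression was measured in the established human cell line REH, derived from an acute leukemia of B-cell precursors, which has the ETV6/RUNX1 fusion and has lost its other ETV6 allele. All cells were grown in RPMI with fetal bovine serum and received a lentiviral short hairpin RNA (shRNA) with a green fluorescent protein reporter, by which transduced cells were sorted. In the 3 knockdown arrays the shRNA was directed against the fusion. In the 3 control arrays it was labelled non-targeting, and according to the methods this was another ETV6 hairpin that spares the fusion transcript. Only 1 hairpin against the fusion and 1 cell line were used, so that effects of the fusion and other effects of that hairpin cannot be told apart, and effects in other leukemias were not analysed here.

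Leukemic B-cell precursors keep many surface proteins of the normal precursor, and flow cytometry of these proteins separates leukemia from regenerating marrow and one genetic class from another. ETV6/RUNX1 leukemia is known for being CD10+ and CD27+ with little CD44 and CD9. CD22 is also the target of antibody therapies, and CD38 and CD24 mark stages of B-cell maturation.

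CD27, a receptor of the tumour necrosis factor family that binds CD70, was the 1 antigen called both without and with a replicate block: its mRNA fell 2.2-fold after fusion knockdown, and all 3 knockdown arrays lay below all 3 control arrays. For CD22, MME and CD38 the knockdown arrays all lay above the control arrays in 1 probe each, by 1.59-fold, 1.51-fold and 1.31-fold, and for CD99 and CD34 below, but these differences did not pass the test across all probes without the block. CD22 and CD72, both higher in knockdown, passed when replicates of the same number were compared with each other. CD24, CD44 and CD9 overlapped between the groups.

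Values are normalized intensities on a log2 scale, n = 3 arrays per group, and differences are knockdown minus control. A probe is said to be called where limma's p was under 0.05 after Benjamini-Hochberg adjustment across the 27490 retained probes. Of the 13 probes, 12 were retained by the filter on dim signal, with at least 1 for each of the 10 genes. Among these 12, 1 was called (CD27, lower), whereas 1.74% of all retained probes were called, 1.28% lower and 0.458% higher. The difference was above 0 for 9 of the 12 and below 0 for 3, with a median of 0.26 against 0.00 (-0.0015) over all retained probes. Groups did not overlap for 6 of the 12, 3 higher and 3 lower in knockdown, compared with 18.9% of all probes (9.02% higher and 9.87% lower). With the replicate number as a block, 3 of the 12 were called, CD22 and CD72 higher and CD27 lower, against 3.78% of all probes (1.35% higher and 2.42% lower). Before adjustment, limma's p was under 0.05 for 3 higher and 3 lower ones, compared with 5.72% and 6.82% of all probes. CD34 is 1 of the 3 lower probes by direction, by overlap and by unadjusted p. It passed the filter only through the control arrays, where it was higher, and so lends these counts no support. As RNA was taken from bulk cultures, fewer cells with an antigen and less RNA per cell cannot be told apart.

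**Figure D1:**
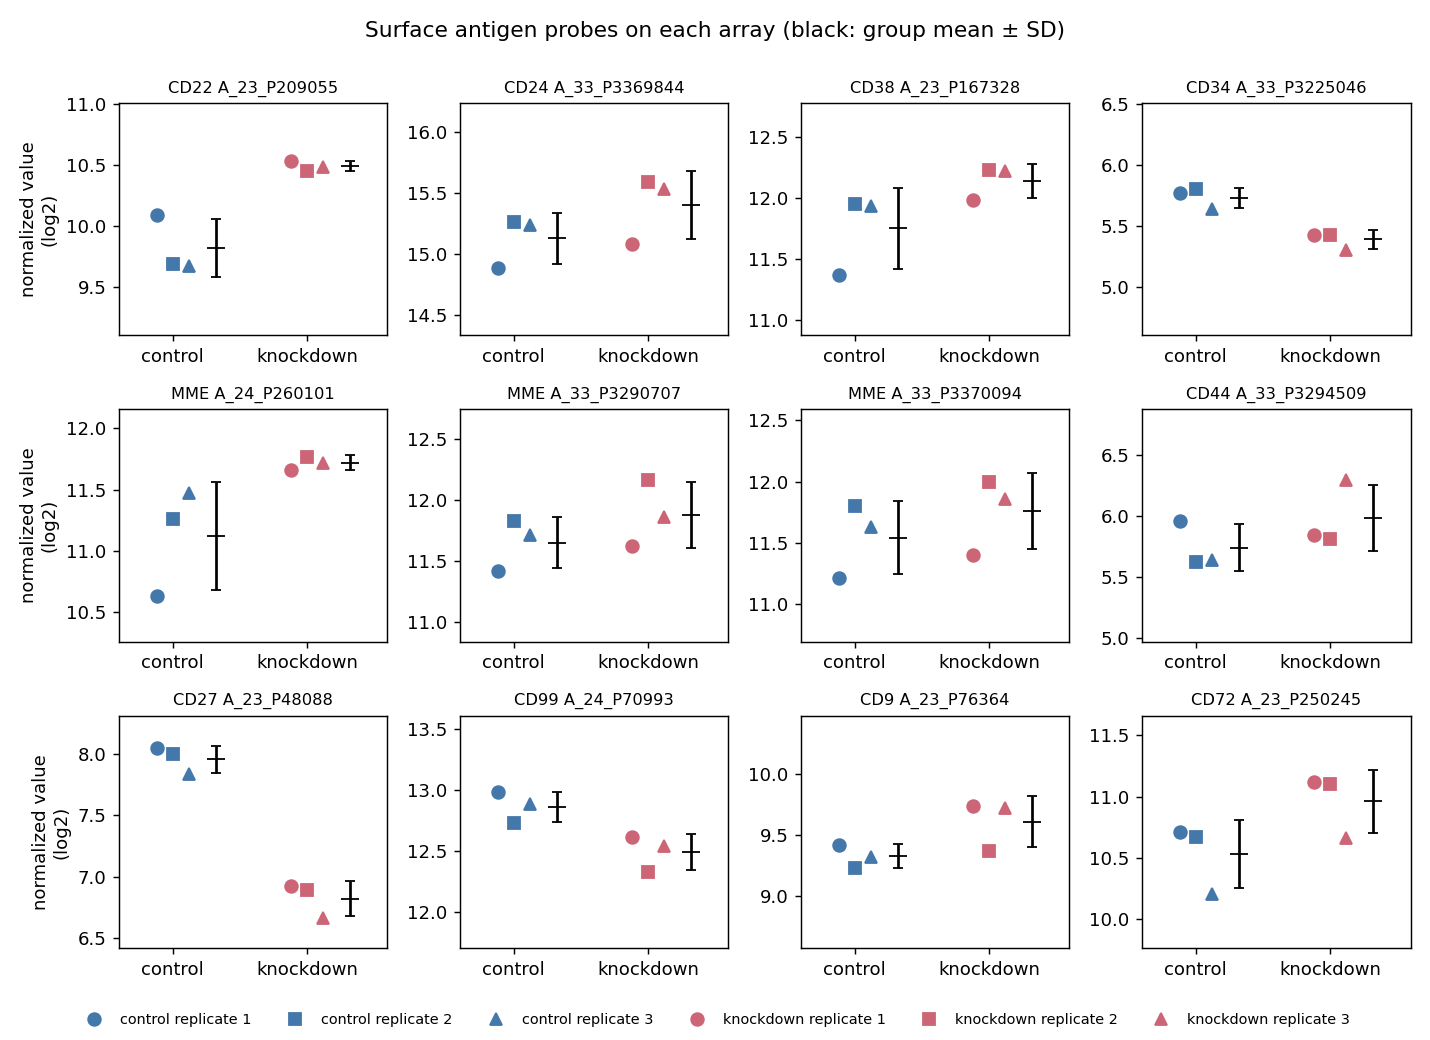
Normalized value (log2) of the 12 retained surface antigen probes on each of the 6 arrays. Blue symbols are control and red symbols knockdown, the symbol shape gives the replicate number, black bars give the group mean ± SD (n = 3), and every panel spans the same range. CD27 is the probe with the widest gap between the groups, and in the CD72 panel each knockdown symbol lies above the control symbol of the same shape although the groups overlap.

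The labels were first checked on the arrays. Of 2 ETV6 probes, A_33_P3356325 measured 7.92, 8.05 and 8.37 in control and 7.50, 7.46 and 7.29 in knockdown, a difference of -0.70 (SE 0.14, limma adjusted p = 0.0513; -0.34 under spike-in scaling, adjusted p = 0.299, and -0.96 with the slide row as a term, 0.0515), while the signal of A_33_P3210343 stayed at background throughout. Where these probes lie relative to the fusion was not analysed here. Of 12 B-cell precursor markers, 11 were retained and well above background on all arrays, and VPREB1, a surrogate light chain gene, was not retained. By the first probe every knockdown array was lower than every control array. All 6 arrays were on 1 slide with 1 scan time, but both arrays in the first slide row were controls, so that rows and groups overlap in part. Between 47.6% and 52.5% of spots were well above background per array, and no spot was saturated.

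First, CD27 was determined. Its probe A_23_P48088 (NM_001242) measured 8.05, 8.0 and 7.84 in control replicates 1 to 3. In knockdown it measured 6.92, 6.89 and 6.66. Every knockdown array was thus lower than every control array by more than the spread within either group, and replicate 3 was the lowest in both. Means were 7.96 ± 0.11 (SD, n = 3) and 6.82 ± 0.14, a difference of -1.14 (SE 0.11, 95% interval -1.40 to -0.88, limma adjusted p = 0.00268). An exact permutation test of 3 against 3 arrays cannot go below its value here, p = 0.1. The pairs of equal number differed by -1.13, -1.11 and -1.18. CD27 was called under each of the 16 alternatives, with differences from -1.38 to -0.78 and adjusted p from 0.00189 to 0.0464. Within the second slide row, which holds 1 control and 3 knockdown arrays, the difference was -1.02.

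The promoters of CD27, CD22 and CD72 are shown because these are the 3 antigens called in at least 1 of the fits without and with the replicate block, and because the fusion keeps the DNA-binding domain of RUNX1 while ETV6 belongs to the ETS family. Sequences are from RefSeq (GRCh38.p14), from 250 bases before to 50 bases after the start of transcription, 5′ to 3′ on the gene's strand. Capitals mark the RUNX core (TGTGGT or TGCGGT, on the other strand ACCACA or ACCGCA) and the ETS core (GGAAG, on the other strand CTTCC).
CD27, chr12:6443642-6443941, plus strand: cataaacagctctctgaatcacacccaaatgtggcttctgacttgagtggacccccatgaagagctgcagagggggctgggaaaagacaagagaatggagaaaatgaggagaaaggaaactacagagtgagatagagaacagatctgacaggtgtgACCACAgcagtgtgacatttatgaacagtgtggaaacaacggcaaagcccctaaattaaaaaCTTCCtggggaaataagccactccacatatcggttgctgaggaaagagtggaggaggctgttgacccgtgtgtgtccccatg
CD22, chr19:35328937-35329236, plus strand: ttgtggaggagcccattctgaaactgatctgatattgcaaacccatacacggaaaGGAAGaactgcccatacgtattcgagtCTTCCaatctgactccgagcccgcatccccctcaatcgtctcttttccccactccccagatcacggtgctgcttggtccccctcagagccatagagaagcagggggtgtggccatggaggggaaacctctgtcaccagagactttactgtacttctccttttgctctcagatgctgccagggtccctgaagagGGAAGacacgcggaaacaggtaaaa
CD72, chr9:35618364-35618663, minus strand: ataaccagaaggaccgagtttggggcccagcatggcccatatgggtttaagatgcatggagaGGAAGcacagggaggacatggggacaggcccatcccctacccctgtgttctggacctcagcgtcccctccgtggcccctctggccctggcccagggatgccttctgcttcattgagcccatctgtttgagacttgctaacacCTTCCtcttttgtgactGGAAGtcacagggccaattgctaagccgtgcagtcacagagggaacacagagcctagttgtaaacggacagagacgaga
The CD27 promoter held 1 RUNX core, ACCACA at -94 from the start, and 1 ETS core at -32. The CD22 and CD72 promoters held 3 ETS cores each and no match to the RUNX core. Among all 18 listed promoters of the 10 antigens, RUNX cores were found in 2, that of CD27 and 1 of the 4 of CD9, and ETS cores in 12. Of all 35093 promoters of the same length, 19.6% held a RUNX core and 71.9% an ETS core. No RUNX match overlapped an ETS match in the antigen promoters. A match of letters is a description and not a binding site.

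Next, CD22 was examined, a sialic acid-binding lectin that restrains B-cell receptor signalling. Probe A_23_P209055 (NM_001771) measured 10.09, 9.69 and 9.67 in control and 10.53, 10.45 and 10.48 in knockdown. The knockdown arrays lay close together and above all controls, of which replicate 1 was the highest. The difference was 0.67 (SE 0.13, 95% interval 0.36 to 0.97) and missed the threshold with a limma adjusted p of 0.0541. With the replicate block the adjusted p was 0.0264. CD22 was called in 5 of 16 alternatives, with adjusted p from 0.00246 to 0.235; leaving out control replicate 1 was one of them (difference 0.80, adjusted p = 0.019).

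CD72, an inhibitory co-receptor of B cells that binds semaphorin 4D, measured 10.71, 10.67 and 10.20 in control and 11.12, 11.10 and 10.66 in knockdown (A_23_P250245, NM_001782). Replicate 3 was the lowest in both groups, so that the groups overlapped, but the pairs differed by nearly the same amount, 0.41, 0.43 and 0.45. Without the block the difference was 0.43 (SE 0.18, 95% interval 0.02 to 0.85, limma adjusted p = 0.373), and it was 0.27 without control replicate 3 and 0.76 with the slide row as a term. With the replicate block the SE was 0.08 and the adjusted p 0.0482, just under the threshold. The even pair differences and this call rest on pairing by the labelled number, and replicates 2 and 3 were hardly told apart over all probes. Of 16 alternatives 2 called it, the block and spike-in scaling.

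**Figure D2:**
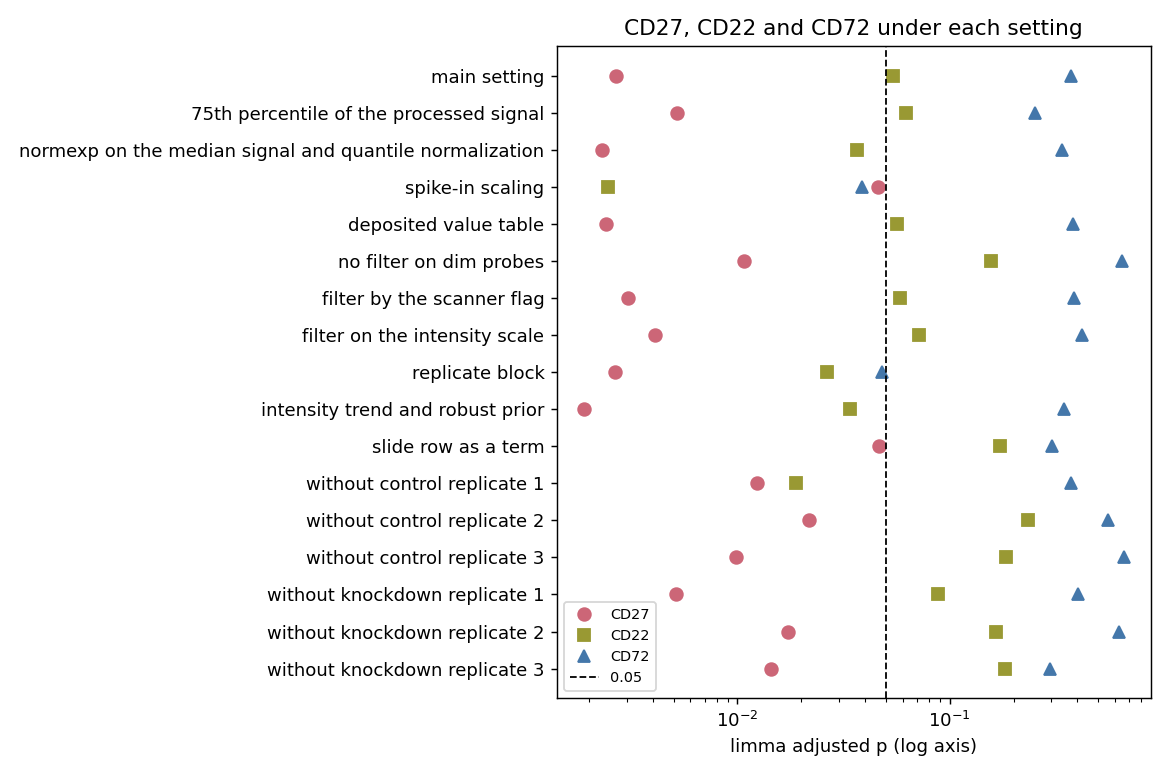
Limma adjusted p (log axis) of the CD27, CD22 and CD72 probes under the main setting and 16 alternatives, with the threshold of 0.05 as a dashed line. CD27 lies left of the line in every row, CD22 in 5 and CD72 in 2 of the alternatives.

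The common acute lymphoblastic leukemia antigen CD10 is the membrane metallopeptidase MME. Its probe A_24_P260101 measured 10.63, 11.26 and 11.47 in control and 11.66, 11.77 and 11.72 in knockdown. The groups did not overlap, but control replicate 1 lay well below the other controls. The difference was 0.59 (SE 0.20, 95% interval 0.13 to 1.05, limma adjusted p = 0.257), and it was 0.35 without control replicate 1 and 0.24 with the slide row as a term. The other MME probes, A_33_P3290707 and A_33_P3370094, overlapped between the groups and differed by 0.23 (SE 0.17, adjusted p = 0.638) and 0.21 (SE 0.20, adjusted p = 0.718). All 3 probes carry the same accession, NM_007289, and each was higher in knockdown in 3 of 3 pairs. They gave the same sign and different sizes. When single arrays were left out, the differences of the latter probes ran from 0.09 to 0.36 and from 0.04 to 0.39, and without control replicate 1 they were 0.11 and 0.04.

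CD38, an ectoenzyme that makes cyclic ADP-ribose, measured 11.37, 11.95 and 11.93 in control and 11.98, 12.23 and 12.22 in knockdown (A_23_P167328, NM_001775). The lowest knockdown array was barely above the highest control array. The difference was 0.39 (SE 0.17, 95% interval 0.00 to 0.79, limma adjusted p = 0.405) and was 0.20 without control replicate 1 and 0.21 with the slide row as a term. CD24, a glycosylphosphatidylinositol-anchored sialoprotein, measured 14.89, 15.26 and 15.24 in control and 15.08, 15.59 and 15.53 in knockdown (A_33_P3369844, NM_013230). In each group replicate 1 was the lowest, for CD24 and CD38 as for the 3 MME probes. The CD24 difference of 0.27 had a 95% interval of -0.11 to 0.65 (limma adjusted p = 0.565), and was 0.15 without control replicate 1 and 0.43 without knockdown replicate 1. CD24 has near-identical pseudogene copies, and whether its probe also binds their RNA was not tested.

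The tetraspanin CD9, which organises membrane proteins into clusters, measured 9.42, 9.23 and 9.32 in control and 9.74, 9.37 and 9.72 in knockdown (A_23_P76364, NM_001769). Only knockdown replicate 2 reached into the control range. Its difference was 0.28 (SE 0.13, 95% interval -0.01 to 0.58, limma adjusted p = 0.416). CD44, the hyaluronan receptor, measured 5.96, 5.62 and 5.64 in control and 5.84, 5.81 and 6.29 in knockdown (A_33_P3294509, NM_000610). It was well above background on 2 control and 3 knockdown arrays, and 2 of 3 pairs were higher in knockdown. The CD44 difference was 0.24 (SE 0.16, 95% interval -0.13 to 0.61, limma adjusted p = 0.602), and 0.09 without knockdown replicate 3, the highest of the arrays. With normexp and quantile normalization the difference was 0.15, and with the 75th percentile of the processed signal 0.56, called in neither.

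CD99, a glycoprotein of leukocyte migration, measured 12.98, 12.73 and 12.88 in control and 12.61, 12.33 and 12.54 in knockdown (A_24_P70993, NM_002414). The highest knockdown array was below the lowest control array. The difference was -0.37 (SE 0.12, 95% interval -0.64 to -0.10, limma adjusted p = 0.225). CD34, a sialomucin of stem and progenitor cells, was dim. Its probe A_33_P3225046 (NM_001025109) measured 5.77, 5.80 and 5.64 in control, where 2 arrays were well above background, and 5.43, 5.43 and 5.30 in knockdown, where none was. The difference was -0.35 (SE 0.1, 95% interval -0.57 to -0.12, limma adjusted p = 0.177). As the knockdown arrays were dim, CD34 was only bounded, at least 1.26-fold higher in control. This bound is taken on the means and carries no sampling error. It also depends on the scaling. With normexp and quantile normalization the CD34 difference was -0.18 and fell short of the bound. With the 75th percentile of the processed signal the difference was -1.12 and exceeded it. The second CD34 probe, A_23_P23829 (NM_001773), ran from 5.18 to 5.62, was flagged well above background on none of the 6 arrays and was not retained. When arrays were scaled on the spike-in probes, which moved the median difference of all probes to 0.36, CD34 came to 0.02, CD99 to -0.01 and CD27 to -0.78. Relative to that median they were at -0.34, -0.37 and -1.14. This repeats the main values by construction, because the scaling shifts all probes of an array alike, and is no separate check. Under spike-in scaling CD34 and CD99 thus hardly differed between the groups. CD27 was lower and called on both scales (limma adjusted p = 0.0457 under spike-in scaling).

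**Figure D3:**
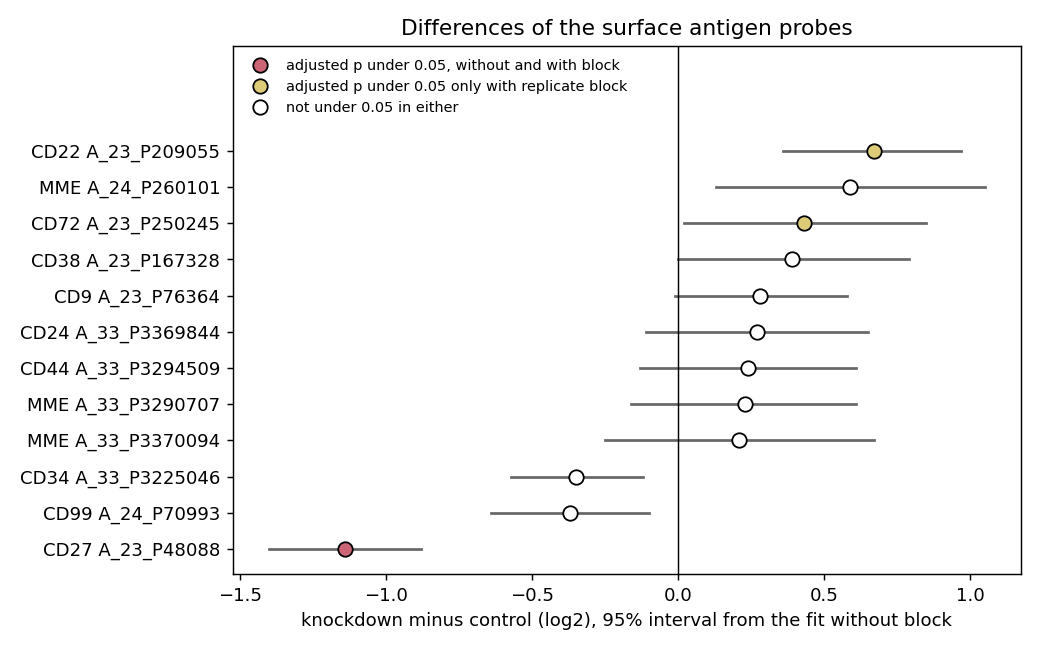
Difference knockdown minus control (log2) of the 12 retained surface antigen probes with the 95% interval of the fit without block. Red marks CD27, called without and with the replicate block, yellow marks CD22 and CD72, called with the block only, and open symbols the others; 9 probes lie right of 0 and 3 left.

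To place the antigens in their pathways, ligands, paralogues and proximal signalling partners were examined. Of 47 such genes 46 had a catalogue probe (CD63 had none), and of 43 retained probes 1 was called higher and 4 lower (against 0.458% and 1.28% of all retained probes), with a median difference of 0.03. PECAM1 (CD31), a ligand of CD38, fell in all 3 of its probes, by 1.14 on the log2 scale for A_23_P252471 (limma adjusted p = 0.0463) and by 1.13 for A_33_P3405213 (0.0121). The first of these measured 8.30, 8.45 and 8.54 in control and 7.78, 6.84 and 7.24 in knockdown. For A_33_P3229402 no knockdown array was well above background, and PECAM1 was at least 1.6-fold lower by this probe (0.015), a call that ended under spike-in scaling (-0.32, adjusted p = 0.321), as did that of A_33_P3405213 (-0.77, adjusted p = 0.0501). The CD38 probe itself was not called and its difference had the opposite sign.

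CD81, a tetraspanin and relative of CD9, rose by its probe A_33_P3373375, from 13.62, 13.52 and 13.59 to 14.08, 14.14 and 14.32 (difference 0.60, limma adjusted p = 0.0295). By A_23_P13425 it differed by 0.47 (adjusted p = 0.0535, with the replicate block 0.0432). EMCN (endomucin), a sialomucin like CD34, was well above background on 3 control arrays but on none of the knockdown arrays, so that only a bound was obtained, at least 1.65-fold lower in knockdown (adjusted p = 0.0245). This bound depends on the scaling. The EMCN difference was -0.41 under spike-in scaling (adjusted p = 0.237) and -0.38 with normexp and quantile normalization (0.0899), both short of the bound. With the 75th percentile of the processed signal it was -2.12 (limma adjusted p = 0.103), beyond the bound but not called. Like CD34, EMCN passed the filter only through the control arrays. Of the 5 retained probes of the CD27 ligand CD70 and of TRAF2, TRAF5 and SIVA1, which act below CD27, none was called by limma (none at an unadjusted p under 0.05 either), and their median difference was 0.08. CD70 measured 12.28, 11.88 and 11.62 in control and 12.53, 11.97 and 11.84 in knockdown (difference 0.18, 95% interval -0.32 to 0.69, adjusted p = 0.786). Of the 7 retained probes around CD22, among them the phosphatase PTPN6 and the kinase LYN, none was called by limma (2 higher at an unadjusted p under 0.05). With the replicate block CD79B (0.55, adjusted p = 0.0367) and CD82 (-0.77, 0.0247) were called as well; both were chosen after their values were seen. Of the other Siglecs, relatives of CD22, 1 of 7 probes was retained.

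**Figure D4:**
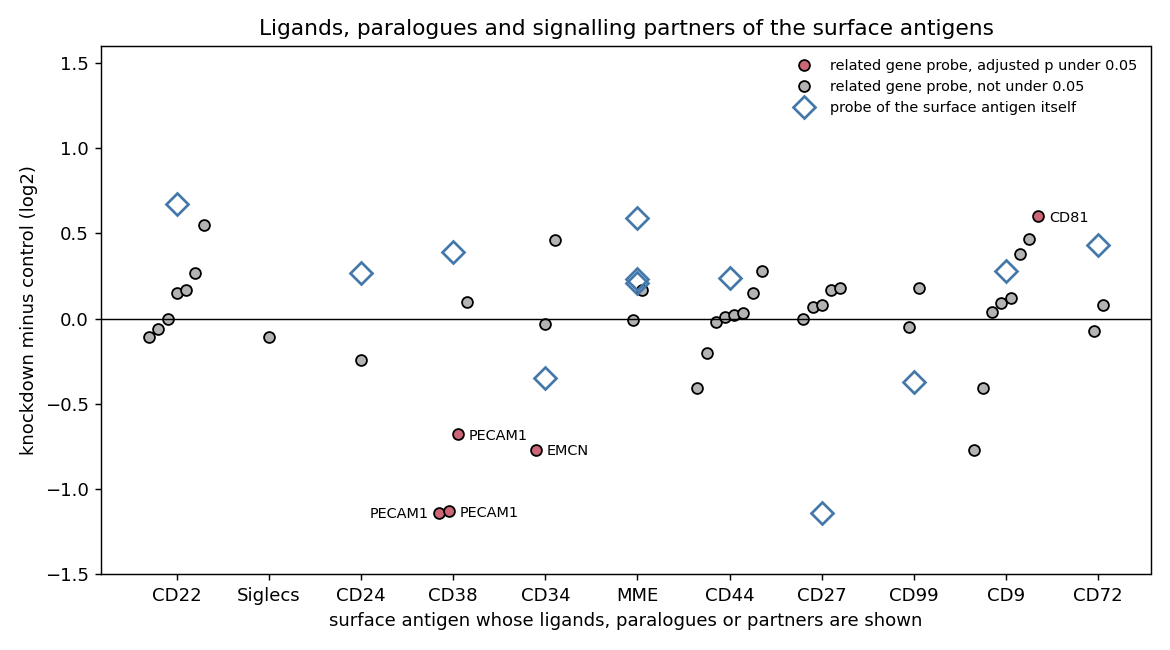
Difference knockdown minus control (log2) of each retained probe of the ligands, paralogues and signalling partners (circles, red where limma's adjusted p was under 0.05), grouped by surface antigen, with the antigen's own probes as blue diamonds. Among the circles, PECAM1 and EMCN were called below 0 and CD81 above; the CD27 diamond at -1.14 stands below all 5 circles of its column.

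Other antigens were used for comparison. Among 24 further antigens of B-precursor typing, none of 27 retained probes was called by limma (2 higher and 2 lower at an unadjusted p under 0.05, 1 with the replicate block), with a median difference of -0.02. The lowest p in this list was that of NT5E (CD73): probe A_24_P316430 differed by 0.36 (adjusted p = 0.168), and the other NT5E probe, A_24_P354715, overlapped between the groups and differed by 0.14 (adjusted p = 0.707). Among 20 antigens of other lineages, 2 of 13 retained probes were called, both lower: CD68, a lysosomal protein of macrophages, by -0.58 (adjusted p = 0.0284), and CSF3R, the granulocyte colony-stimulating factor receptor, by -1.58 (0.0391). Under spike-in scaling CD68 was at -0.22 (adjusted p = 0.461). Over all 3 lists 7 of 83 retained probes were called, 1 higher and 6 lower, against 1.74% of all retained probes. Spike-in scaling called 8, 6 higher and 2 lower, and over all probes 1050, 900 higher and 150 lower. This count fell to 0 without control replicate 2, control replicate 3 or knockdown replicate 2, to 1 without knockdown replicate 3, to 2 without control replicate 1, and to 0 with the slide row as a term. CD27 was called in each of these settings.

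Markers of other cell types that moved with CD27 were recorded. Of 7 myeloid markers, 6 had a probe and 5 probes were retained, all with a difference below 0. Of these 5, 2 were called: MPO (-2.02, limma adjusted p = 0.00107) and CSF3R, against 1.28% of all retained probes called lower. The summed myeloid level (2 raised to the normalized value, over all probes of the list) ran from 17300 to 20200 in control and from 4340 to 6620 in knockdown, and most of this sum is MPO and CSF3R. The other retained probes were not called, with -0.13 for CD14, -0.05 for CSF1R and a bound for FCN1, at least 1.53-fold lower (adjusted p = 0.198), and ELANE was well above background on none of the 6 arrays. Among 6 markers of mature B and plasma cells, PRDM1 (BLIMP1) fell in both probes, by 0.99 (A_23_P350451, adjusted p = 0.00869) and 1.61 (A_33_P3342081, 0.00109), while the summed level ran from 25300 to 29700 in control and from 26800 to 34300 in knockdown. The first PRDM1 probe, well above background on 1 knockdown array, was not called under spike-in scaling (-0.62, adjusted p = 0.123) or with the slide row (-0.92, 0.12). SDC1 (CD138) of the same list was at -0.43 (adjusted p = 0.473, with the replicate block 0.0494). No T-cell, erythroid, epithelial or B-cell precursor marker was called by limma. At an unadjusted limma p under 0.05 there was 1 higher probe among 3 retained T-cell probes. Among 15 retained B-cell precursor probes 5 were higher and 1 lower at that level, against 5.72% and 6.82% of all retained probes. The replicate block called 3 of these 15, all higher, against 1.35% of all retained probes. CD3E was well above background on none of the 6 arrays, and the summed T-cell level ran from 309 to 540 in control and from 317 to 509 in knockdown. The B-cell precursor markers had a median difference of 0.15 and a summed level from 296000 to 304000 in control and 340000 to 396000 in knockdown. The part of these markers in the difference of CD27 was not tested.

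Finally, the genes most like CD27 and CD22 over the 6 arrays were listed, by the root mean square difference of values centred on each gene's mean, among 13644 named genes. For CD27 these were XIRP2 (0.0738), MECOM (0.0836), GPR162 (0.0858), BAALC (0.0881) and ACR (0.101), all lower in knockdown and called. For CD22 they included MAD1L1 (0.0834), ARMC12 (0.085), HMHB1 (0.0872) and CSK (0.098), all with a difference above 0, of which ARMC12 and CSK were called. These genes were picked by likeness over the same 6 arrays, so that their directions and calls largely follow from the choice. This likeness is a description over 6 arrays that share a slide.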

How the data were processed

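Cy3-labelled cRNA was made from total RNA, per the labels, and hybridised to a custom 1-colour Agilent array. The authors extracted spot intensities with Feature Extraction 10.7.1.1, per the file headers, and these were not normalized between arrays. They also deposited normalized log2 values for 27869 probes; its methods name VSN (variance stabilization), a filter against the negative controls and limma. Of the extracted spot measures, only the raw median intensity, the processed intensity, the local background and the flags were used here. The deposited values served for comparison and as 1 of the alternatives.

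The VSN model (an affine calibration and an inverse hyperbolic sine) was rewritten and fitted by maximum likelihood to the raw median intensity. Its values correlated with the deposited log2 values at r from 0.99904 to 0.99969 per array, across probes. On this scale changes of dim probes are understated. Outlier spots were left out and spots of 1 probe averaged. A probe was retained where it lay above a threshold on 60% or more of a group's arrays (27490 probes), the threshold being 1.1 times the 0.95 quantile that 308 negative controls had on the normalized scale. Knockdown was set against control with limma 3.58.1 (R 4.3.3), without a block, and the method was tested on simulated data. Symbols came from RefSeq accessions (25728 of 34134 catalogue probes matched). The alternatives were other normalizations, filters, scalings and tests, a replicate block, the slide row and leaving out each array.

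Replicate numbers come from the labels. Deviations from the group means correlated between same-numbered arrays at 0.427, 0.288 and 0.204, so that by a rule of over 0.1 in every pair the numbers were taken to pair the samples. Replicates 2 and 3 were hardly told apart (0.188 and 0.17 between unlike numbers, which pass the same rule), and replicate 1 stood apart from both (-0.332 to -0.264). The study calls the arrays biological triplicates. The number of arrays limits the precision. A probe not well above background in a group has only a bound: the bright group's mean against the dim group's mean of, per array, its own value or the dimmest probe well above background, whichever was higher. Such a bound carries no sampling error. Named genes were all antigen probes, called genes of each list or its gene of lowest p, and the 5 nearest patterns of CD22 and each called antigen; a few genes that this rule or the lists name are not reported here. The antigens and lists were chosen with earlier results of these data known.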

Additional observations from a re-analysis of the deposited data

How the results depend on the processing

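Of 191 values of single antigen probes under alternatives, 182 kept their direction and side of the threshold, 8 newly passed it and 1 reversed. The reversal was CD34 under spike-in scaling (0.02), which moved the median of all probes to 0.36. Relative to it CD34 was at -0.34, which repeats the main value by construction. The number of antigen probes called was 1 and rose to 2 with normexp on the median signal and quantile normalization, 2 with an intensity trend and robust prior, 3 with the replicate block and 4 with spike-in scaling (CD22, CD72, MME and CD27), and ran from 1 to 2 when single arrays were left out, 2 being without control replicate 1. For the related genes, 7 probes were called, against 2 with the 75th percentile of the processed signal, 2 with no filter on dim probes, 12 with the replicate block, 8 with spike-in scaling (6 higher and 2 lower, in place of 1 and 6), 0 with the slide row as a term and 0 to 7 without single arrays. Over all probes, 478 were called, against 1050 with spike-in scaling (900 higher and 150 lower, in place of 126 and 352), 224 with no filter, 1038 with the replicate block, 227 with the slide row, and 191 (without control replicate 2) to 553 (without knockdown replicate 1). The cause of these shifts was not tested. The replicate block ended no call of an antigen or related gene. The filter on the intensity scale was chosen after seeing the data and kept the antigen count at 1. VSN on the mean spot intensity was not run, since the files used here hold no such column, and normexp took the median signal in its place. CD34 and CD44 lie near background, which limits what their differences can show.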
